A study of Mus musculus with 9 samples.

Results

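The 9 genes described here are markers of the layers of the cerebral cortex, measured by RNA sequencing of mouse brain tissue in 9 libraries. They were taken by name from the table of 18138 genes. There are 6 upper-layer genes, namely Cux2, Rorb, Lamp5, Rspo1, Rasgrf2 and Neurod6, and 3 deep-layer genes, namely Fezf2, Tle4 and Bcl11b. All 9 were in the table and all 9 passed the filter on low counts, which kept 14756 genes. The libraries form 3 groups of 3: control mice, mice after surgery for middle cerebral artery occlusion (MCAO, a model of ischaemic stroke), and mice that received hypidone hydrochloride (YL-0919) at 5 mg/kg for 7 days following that surgery. Hypidone is named "the drug" below. Not given in the sources used here were the strain, age and sex of the mice, the brain region and hemisphere, the time of sampling, any sham surgery of the controls and any vehicle given to the MCAO group. Nothing in the labels says that the libraries of a group came from separate mice, so the p-values measure the spread between libraries, which may be technical. Each library carries below the name of its group with the last number of its title.

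The cortex is built of layers of excitatory neurons that differ in their targets and in the transcription factors that they express. Neurons of the upper layers connect mainly to other cortical areas and receive much of the thalamic input in layer 4, while those of the deep layers send axons to the thalamus, brainstem and spinal cord. Layer markers are read in bulk tissue as a mixture: fewer cells of a type and less RNA per cell cannot be told apart. The branches of the middle cerebral artery supply much of the lateral cortex and the striatum.

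The libraries held between 32075682 and 37325027 counts. Levels below are CPM, counts relative to the TMM-scaled library total, and levels compared between genes are FPKM, which also divide by gene length. The fit across all genes was edgeR's quasi-likelihood test, with Benjamini-Hochberg adjustment over all genes tested and a threshold of 0.05. Each log2 fold change is given ± SE.

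Control 5 stood apart from the other controls in these genes, so the tests are given with it and without it. That choice rests on the same values that are tested. Leaving control 5 out deepens a fall in MCAO wherever it was the lowest control, so p-values without it are descriptive. Cux2 stood at 161 CPM in control 4, 20.8 in control 5 and 144 in control 6. Lamp5 stood at 664, 53.5 and 585 CPM in the same libraries. Control 5 was the lowest of all 9 libraries for Cux2, Rorb, Lamp5, Rspo1 and Rasgrf2. Against the mean of controls 4 and 6 it was 7.35-fold lower in Cux2, 6.14-fold in Rorb, 11.7-fold in Lamp5, 23.1-fold in Rspo1 and 2.52-fold in Rasgrf2. It was the highest of all libraries for Neurod6, Bcl11b, Fezf2 and Tle4, at 3.58, 4.50, 1.70 and 1.55 times that mean. Neurod6 thus went against its upper-layer label in control 5 and moved there with Bcl11b. Both are also known as genes of hippocampal neurons. The mean log2 CPM of 12 tested hippocampal genes was 5.77 in control 5 and between 1.84 and 2.68 in the other 8 libraries, with Prox1, a factor of dentate granule cells, at 131 CPM against 7.60 to 12.0. Choroid plexus genes were also apart there as a mean, with a log2 CPM over 7 tested genes of 2.57 in control 5 against -1.59 to 0.53 elsewhere. Ttr, the transthyretin gene, was at 153 CPM against at most 8.15. Not all of these genes were highest there: Aqp1 was at 0.46 CPM in control 5 and 5.18 in MCAO 5. Kcnj13 was at 2.42 CPM in control 5 and 4.13 in hypidone 7. The labels give only brain as the tissue, so a different sampled region and a difference between mice cannot be told apart. The part of hippocampal and choroid plexus RNA in the values of control 5 was not tested.

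**Figure D1:**
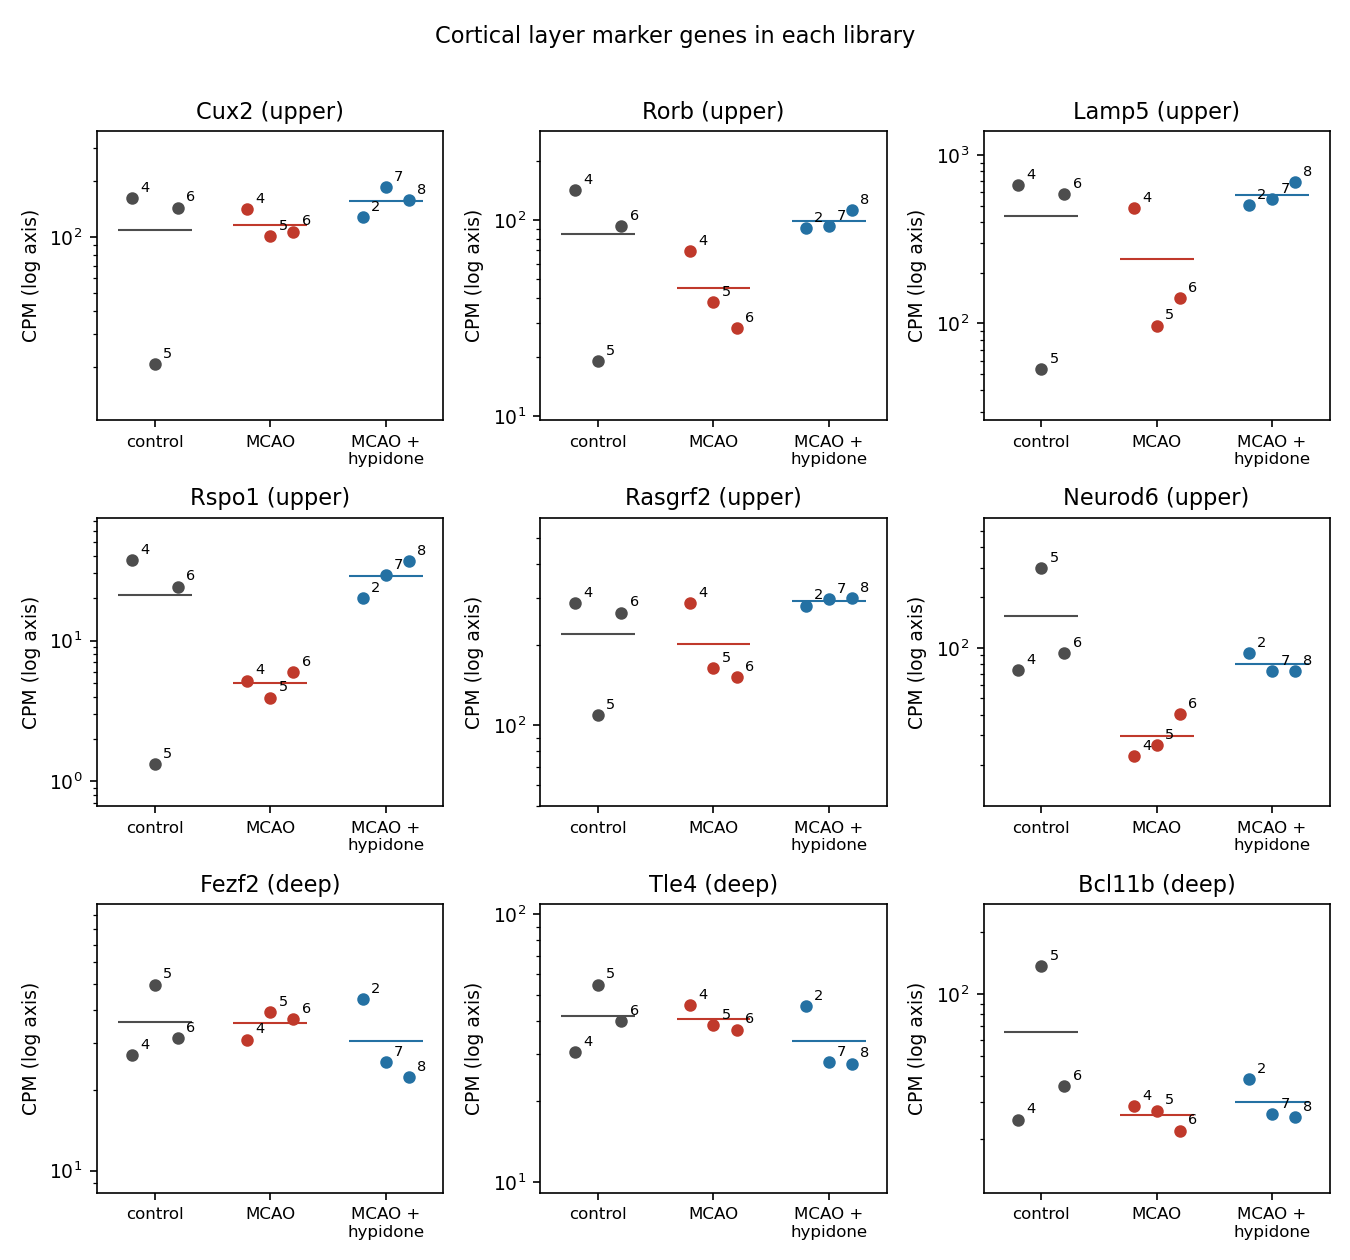
CPM of each of the 9 genes (log axis) in each library, by group. Points are libraries labelled with the number in their title, and lines are group means over 3 libraries. Control 5 is the lowest point for Cux2, Rorb, Lamp5, Rspo1 and Rasgrf2 and the highest for Neurod6, Fezf2, Tle4 and Bcl11b, and the 3 MCAO libraries of Rspo1 and Neurod6 lie below every hypidone library.

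Per gene length, Lamp5 was the most abundant of the 9 genes and Bcl11b the least in the hypidone group, whose libraries were the most alike. The FPKM there was 211 ± 34.4 for Lamp5 (SD, n = 3), 36.8 ± 5.49 for Neurod6, 26.4 ± 0.93 for Rasgrf2, 17.5 ± 3.29 for Cux2, 15.4 ± 4.45 for Rspo1, 10.4 ± 1.20 for Rorb, 8.01 ± 3.03 for Fezf2, 6.64 ± 1.99 for Tle4 and 2.47 ± 0.61 for Bcl11b. Single libraries of neighbours in this order overlapped from Cux2 to Tle4, so the order of those 5 genes is not set beyond the spread. In MCAO the order was another one: Rorb, at 4.77 ± 1.96 FPKM, and Rspo1, at 2.74 ± 0.52, lay below Fezf2 at 9.61 ± 1.78 and Tle4 at 8.13 ± 0.50.

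The first comparison set MCAO beside control, for changes with the occlusion. With all 9 libraries, Neurod6 fell and no other of the 9 genes passed the test. Without control 5, a choice made from these same values, Rspo1, Neurod6 and Rorb fell, and none of the 3 deep-layer genes passed. Over all genes tested, 9.81% were called lower with all libraries and 10.3% without control 5, beside 1 and 3 of the 9 genes here. The median log2 fold change of the 6 upper-layer genes was -0.88, or -1.38 without control 5, and that of the 3 deep-layer genes -0.04, or 0.20. Over all tested genes the median was 0.01, or 0.03 without control 5.

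Rspo1 encodes R-spondin 1, a secreted protein that strengthens Wnt signalling, and in the cortex marks layer 4. It stood at 37.2, 1.33 and 24.2 CPM in controls 4, 5 and 6, and at 5.20, 3.93 and 5.96 CPM in MCAO 4, 5 and 6. All MCAO libraries were below controls 4 and 6 and above control 5. With all libraries the log2 fold change was -2.05 ± 0.84 (edgeR adjusted p = 0.111). Without control 5 it fell by 2.61 ± 0.30 on the log2 scale (adjusted p = 0.00332), the largest fall of the 9 genes. That call remained in a fit of the MCAO libraries with controls 4 and 6 alone (adjusted p = 0.0432). It also remained on leaving out control 5 with any 1 MCAO or hypidone library. All of these fits leave out control 5, so they cannot test that choice and are no support for a fall.

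Neurod6 encodes a basic helix-loop-helix transcription factor of pyramidal neurons in both cortex and hippocampus. It stood at 73.5, 298 and 93.1 CPM in controls 4, 5 and 6, and at 22.7, 26.4 and 40.2 CPM in MCAO 4, 5 and 6. The groups did not overlap, with a log2 fold change of -2.38 ± 0.50 with all libraries (adjusted p = 0.0138) and -1.49 ± 0.24 without control 5 (adjusted p = 0.00841). This call was lost in a fit of the 2 groups alone, with an adjusted p of 0.0574, or 0.0642 without control 5, and without control 5 together with control 4 or 6 (0.0604 and 0.0816).

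Rorb encodes an orphan nuclear receptor that is a defining gene of layer 4. It stood at 142, 19.1 and 93.3 CPM in controls 4, 5 and 6, and at 69.3, 38.2 and 28.1 CPM in MCAO 4, 5 and 6. MCAO lay below controls 4 and 6 and above control 5. Its log2 fold change was -0.91 ± 0.59 with all libraries (adjusted p = 0.294), and without control 5 it fell by 1.38 ± 0.35 (adjusted p = 0.0299). The call was lost in a fit of the MCAO libraries with controls 4 and 6 alone (adjusted p = 0.0996). It was also lost without control 5 together with any one of control 4, control 6, MCAO 6 or the hypidone libraries, with an adjusted p between 0.0539 and 0.213.

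Lamp5, Rasgrf2 and Cux2 divided the MCAO libraries. Lamp5 encodes a lysosome-associated membrane protein of upper-layer pyramidal neurons and of a class of interneurons. It stood at 483 CPM in MCAO 4, close to controls 4 and 6, but at 97.1 and 141 CPM in MCAO 5 and 6. The log2 fold change was -0.85 ± 0.82 (adjusted p = 0.480), or -1.38 ± 0.57 without control 5 (adjusted p = 0.119). Without both control 5 and MCAO 4 it was -2.39 (adjusted p = 0.000715). These are the lowest Lamp5 library of control and the highest of MCAO. Leaving them out was chosen after the values were seen, so that p is no support for a fall.

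Rasgrf2, an exchange factor that activates Ras and Rac in layer 2 and 3 neurons, was at 286 CPM in MCAO 4 and at 164 and 152 CPM in MCAO 5 and 6. Its control values were 287, 109 and 264 CPM, and the groups overlapped. The log2 fold change was -0.13 ± 0.35, or -0.46 ± 0.26 without control 5 (adjusted p = 0.815 and 0.222). Cux2, a homeodomain transcription factor of layers 2 to 4, was at 141, 101 and 107 CPM in MCAO 4, 5 and 6. Its log2 fold change was 0.10 ± 0.57, or -0.39 ± 0.20 without control 5 (adjusted p = 0.916 and 0.181).

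Set against the mean of controls 4 and 6, MCAO 4 held 16.95% of Rspo1, 27.2% of Neurod6 and 59.0% of Rorb, but 77.4% of Lamp5, 92.6% of Cux2 and 104% of Rasgrf2. MCAO 5 held 12.8% of Rspo1, 31.6% of Neurod6, 32.5% of Rorb and 15.6% of Lamp5, with 66.5% of Cux2 and 59.6% of Rasgrf2. Rspo1 and Neurod6 were thus low in every MCAO library. Lamp5 and Rasgrf2 were low in MCAO 5 and 6 only. These shares are descriptions of single libraries, without a test.

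**Figure D2:**
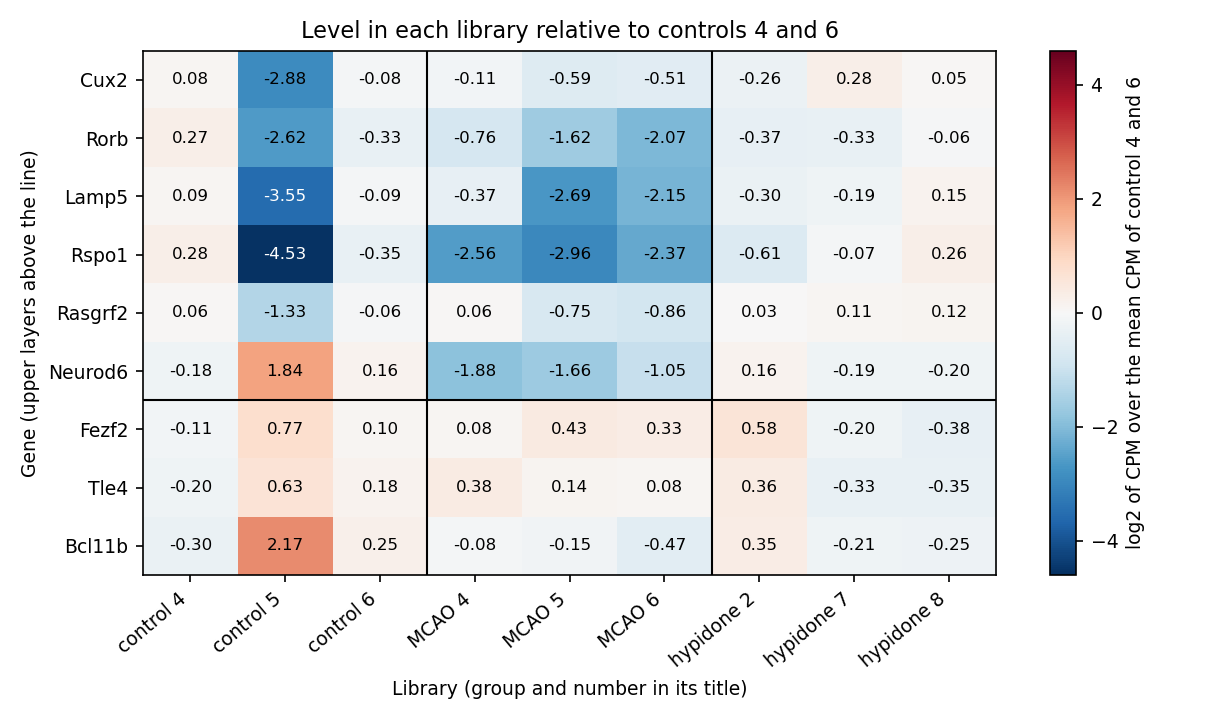
Log2 of each gene's CPM in each library over its mean CPM in controls 4 and 6. Blue is lower and red higher, and the line separates upper-layer from deep-layer genes. Rspo1 and Neurod6 are low in all 3 MCAO libraries, Lamp5 mainly in MCAO 5 and 6, and the hypidone libraries lie between -0.61 (Rspo1) and 0.58 (Fezf2), both in hypidone 2.

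The deep-layer genes did not pass the test in MCAO. Fezf2, a zinc finger factor that specifies corticospinal neurons of layer 5, was at 27.1, 49.6 and 31.3 CPM in controls 4, 5 and 6 and at 30.9, 39.2 and 36.8 CPM in MCAO 4, 5 and 6. The log2 fold change was -0.02 ± 0.29, or 0.28 ± 0.28 without control 5 (adjusted p = 0.978 and 0.476). Tle4, a corepressor of layer 6 neurons that project to the thalamus, was at 30.6, 54.7 and 39.8 CPM in control and at 45.9, 38.7 and 37.2 CPM in MCAO. Its log2 fold change was -0.04 ± 0.25, or 0.20 ± 0.24 without control 5 (adjusted p = 0.926 and 0.575). The groups overlapped in both genes.

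Bcl11b encodes CTIP2, a zinc finger factor of layer 5 neurons that is also found in striatal and hippocampal neurons. It was at 24.7, 136 and 36.0 CPM in controls 4, 5 and 6 and at 28.7, 27.3 and 21.9 CPM in MCAO 4, 5 and 6. The log2 fold change of -1.34 ± 0.55 (adjusted p = 0.110) rested on control 5, without which it was -0.23 ± 0.24 (adjusted p = 0.514). Of 14 striatal genes 13 were tested, and their mean log2 CPM was 3.22 to 3.87 in control, 3.19 to 3.69 in MCAO and 3.69 to 3.85 with the drug. Defining striatal markers were near 0 in all libraries, with Drd2 at most at 2.52 CPM and Adora2a at most at 1.88 CPM.

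The groups of MCAO and control did not overlap for 1 of the 9 genes, Neurod6, and for 5 of them without control 5, namely Rspo1, Neurod6, Rorb, Lamp5 and Cux2, all with MCAO lower. Over all genes tested MCAO lay wholly below control for 17% and, without control 5, for 24.9%. In the authors' deposited table, Neurod6 had a fold change of 0.191 (q = 2.00e-04), Rspo1 one of 0.242 (q = 0.0695) and Bcl11b one of 0.393 (q = 0.0902), and the q of each other gene was at least 0.343.

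The promoters of the 3 genes that fell without control 5 are shown because these genes were low together in MCAO. Each window is the 250 bases before a RefSeq transcription start (GRCm38.p6, which is mm10), 5′ to 3′ on the gene's strand, with each E-box, CANNTG, in capitals. Helix-loop-helix factors such as the product of Neurod6 bind E-boxes. The windows are chr4:124986180-124986429 on the plus strand for Rspo1, chr6:55681264-55681513 on the minus strand for Neurod6, and chr19:19111197-19111446 on the minus strand for the first start of Rorb.
Rspo1: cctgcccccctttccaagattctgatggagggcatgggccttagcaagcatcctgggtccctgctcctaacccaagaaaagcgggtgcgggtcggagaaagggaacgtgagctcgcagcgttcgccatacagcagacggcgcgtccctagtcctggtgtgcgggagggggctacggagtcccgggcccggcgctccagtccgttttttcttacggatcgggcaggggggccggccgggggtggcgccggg
Neurod6: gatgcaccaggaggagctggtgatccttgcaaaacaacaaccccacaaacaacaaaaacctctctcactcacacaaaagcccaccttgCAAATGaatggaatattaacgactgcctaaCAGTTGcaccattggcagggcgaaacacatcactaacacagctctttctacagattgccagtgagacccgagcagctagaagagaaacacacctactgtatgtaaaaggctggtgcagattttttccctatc
Rorb: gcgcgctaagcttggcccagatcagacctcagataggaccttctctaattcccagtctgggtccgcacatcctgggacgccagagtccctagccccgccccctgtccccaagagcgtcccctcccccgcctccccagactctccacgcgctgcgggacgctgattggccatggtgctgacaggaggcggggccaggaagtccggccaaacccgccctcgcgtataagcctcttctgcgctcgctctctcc
The Neurod6 window holds 2 E-boxes, and those of Rspo1 and of this Rorb start hold 0. The window before another RefSeq start of Rorb, at chr19:19001118-19001367, holds 2. Of 32851 RefSeq promoter windows of this length, 66.2% hold at least 1, and the median is 1. No window of the 3 holds the cyclic AMP response element TGACGTCA or the AP-1 site TGACTCA, searched on both strands, which 1.55% and 4.46% of all windows hold. A match is a run of letters, not a measured binding site. GENCODE M21 places Rspo1 on chromosome 4 from 124986430 to 125009099, Neurod6 on chromosome 6 from 55677822 to 55681263, and Rorb on chromosome 19 from 18930605 to 19111196. No annotated gene shares exon bases with any of the 9 genes.

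Hypidone after MCAO was compared with MCAO alone to find what differed with the drug. With all 9 libraries none of the 9 genes passed the edgeR test, while 8.23% of all genes were called higher. At an unadjusted p under 0.05, Rspo1 and Neurod6 were higher, and DESeq2, which called 12.5% of all genes higher, called the same 2. Without control 5, which enters neither group but widens the shared spread, Rspo1, Neurod6 and Rorb rose, 3 of 9 where 10.8% of all genes were called higher. The fold changes were almost the same in both fits. This comparison and the one above share the MCAO libraries, so they are not independent of each other.

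Rspo1 stood at 20.0, 29.2 and 36.8 CPM in hypidone 2, 7 and 8, against at most 5.96 CPM in MCAO. The log2 fold change was 2.51 ± 0.85 with all libraries (adjusted p = 0.0720) and 2.51 ± 0.29, a 5.71-fold rise, without control 5 (adjusted p = 0.00252). A fit of the 2 groups alone also called it (adjusted p = 0.00840).

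Neurod6 stood at 93.3, 72.8 and 72.5 CPM in hypidone 2, 7 and 8, all above MCAO. Its log2 fold change was 1.42 ± 0.48 with all libraries (adjusted p = 0.0724) and 1.42 ± 0.23, or 2.68-fold, without control 5 (adjusted p = 0.00651). In the fit of the 2 groups alone the adjusted p was 0.0176. Leaving out control 5 and any one further library kept the calls of Rspo1 and Neurod6, with an adjusted p of at most 0.0165 and 0.0327.

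Rorb stood at 90.7, 93.3 and 112 CPM in hypidone 2, 7 and 8, also wholly above MCAO. The log2 fold change was 1.13 ± 0.59 (adjusted p = 0.207) and 1.13 ± 0.32 without control 5 (adjusted p = 0.0387). The fit of the 2 groups alone did not call it (adjusted p = 0.0576), and on leaving out control 5 and 1 further library the adjusted p lay between 0.0532 and 0.124, except without MCAO 4, where it was 0.00211.

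Lamp5 stood at 507, 547 and 692 CPM in hypidone 2, 7 and 8, with MCAO 4 only slightly below at 483. Its log2 fold change was 1.28 ± 0.82 with all libraries and 1.28 ± 0.53 without control 5 (adjusted p = 0.301 and 0.115), or 2.29 without control 5 and MCAO 4 (adjusted p = 0.000577). That last fit leaves out the highest Lamp5 library of MCAO, chosen after its values were seen. Its p is therefore no support for a rise. Rasgrf2 was at 280, 296 and 299 CPM, a narrow range that held MCAO 4, and had 0.54 ± 0.23 without control 5 (adjusted p = 0.123). Cux2 was at 127, 185 and 158 CPM, a range that also held MCAO 4, and had 0.43 ± 0.18 (adjusted p = 0.113).

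**Figure D3:**
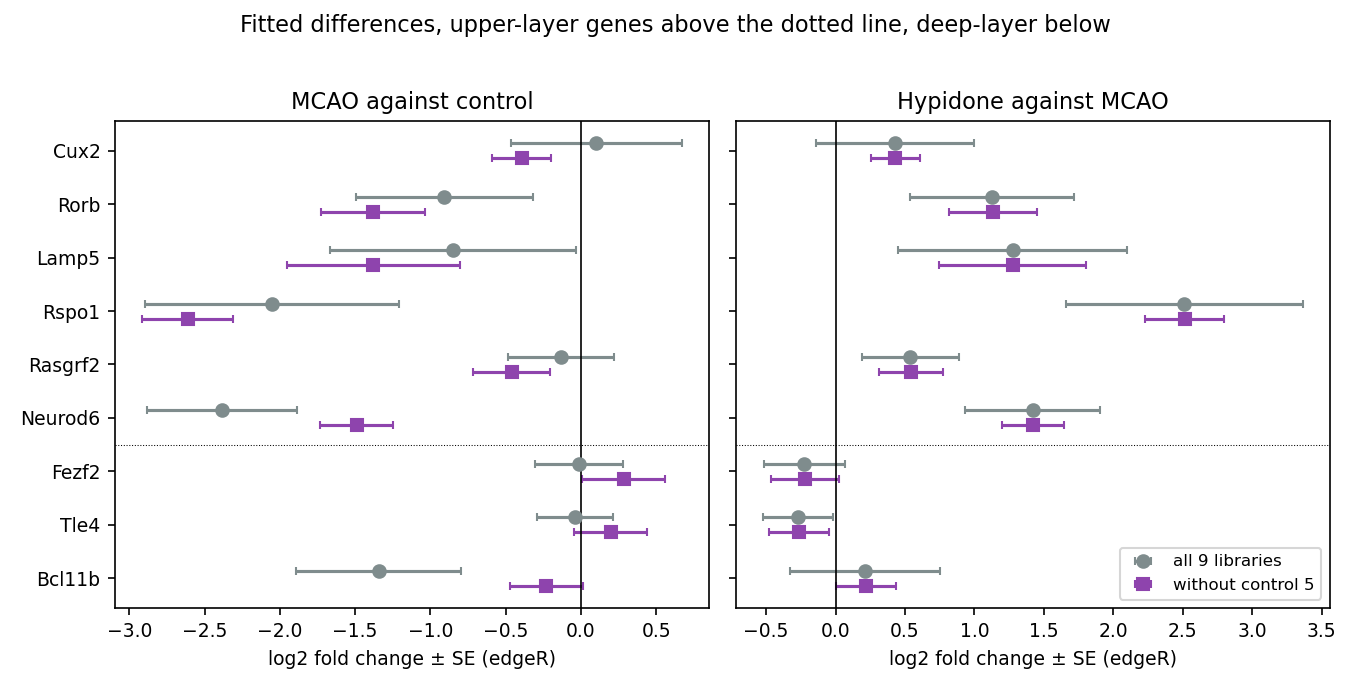
Log2 fold change ± SE from edgeR for each gene in MCAO against control (left) and hypidone against MCAO (right), with all 9 libraries (circles) and without control 5 (squares). For hypidone against MCAO the estimates hardly move and the errors shrink without control 5. The error of the upper-layer gene Rspo1 goes from 0.85 to 0.29 and that of the deep-layer gene Bcl11b from 0.54 to 0.22.

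The deep-layer genes did not pass in this comparison either, and hypidone 2 differed from its group in them. Fezf2 was at 43.7, 25.4 and 22.4 CPM in hypidone 2, 7 and 8, Tle4 at 45.3, 28.0 and 27.7 CPM, and Bcl11b at 38.7, 26.2 and 25.5 CPM. Hypidone 2 was the highest of the 3 libraries in each deep-layer gene and the lowest in 5 of the 6 upper-layer genes, Neurod6 being the exception. Without control 5 the log2 fold changes against MCAO were -0.22 ± 0.24 for Fezf2, -0.27 ± 0.22 for Tle4 and 0.22 ± 0.22 for Bcl11b, with an adjusted p of 0.540, 0.395 and 0.489.

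Hypidone libraries lay wholly above MCAO for 4 of the 9 genes, Rorb, Lamp5, Rspo1 and Neurod6, where 20.9% of all genes did. In the authors' deposited table the drug comparison gave fold changes of 5.68 for Rspo1 (q = 3.95e-14), 2.67 for Neurod6 (q = 3.17e-06), 2.18 for Rorb (q = 0.00651) and 2.40 for Lamp5 (q = 0.0594). Whether vehicle and sampling time were alike in both groups is not in the labels, so they cannot be told apart from the drug.

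Hypidone against control gave no call among the 9 genes in any fit. Over all genes the edgeR fit called 0%, and DESeq2 called 1 gene, or 2 without control 5. None of the 9 genes had an unadjusted p under 0.05, and in all 9 the groups overlapped, where 6.57% of all genes did not. Without control 5 the log2 fold changes lay between -0.25 ± 0.35 for Rorb and 0.08 ± 0.26 for Rasgrf2, with Rspo1 at -0.10 ± 0.30 and Neurod6 at -0.07 ± 0.25. With all libraries Bcl11b was at -1.13 ± 0.55 and Neurod6 at -0.96 ± 0.48. A p that misses the threshold does not show that the levels were alike, and for Lamp5 the SE of 0.58 without control 5 leaves a wide interval.

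The balance of upper and deep layers was described within each library as the mean log2 CPM of the 6 upper-layer genes minus that of the 3 deep-layer genes. It was 2.46, -1.19 and 1.86 in controls 4, 5 and 6, then 1.10, 0.32 and 0.69 in MCAO 4, 5 and 6, and 1.50, 2.34 and 2.54 in hypidone 2, 7 and 8. Control 5 was the only library in which deep-layer genes had the higher mean. MCAO lay below every hypidone library and below controls 4 and 6. The score counts Neurod6, a gene of pyramidal neurons in cortex and hippocampus, as an upper-layer gene. Its log2 CPM was 4.51 in MCAO 4 and 6.55 in hypidone 2, so it widens the gap between these libraries, the closest of their groups. Group means were 1.05 ± 1.96 in control (SD, n = 3), or 2.16 without control 5, 0.70 ± 0.39 in MCAO and 2.13 ± 0.55 with the drug. The upper mean was 5.43 to 6.21 in MCAO and 6.91 to 7.19 with the drug, while the deep mean was 4.96 to 5.12 and 4.65 to 5.41. The genes were chosen with these results known, and no test was made of this score.

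**Figure D4:**
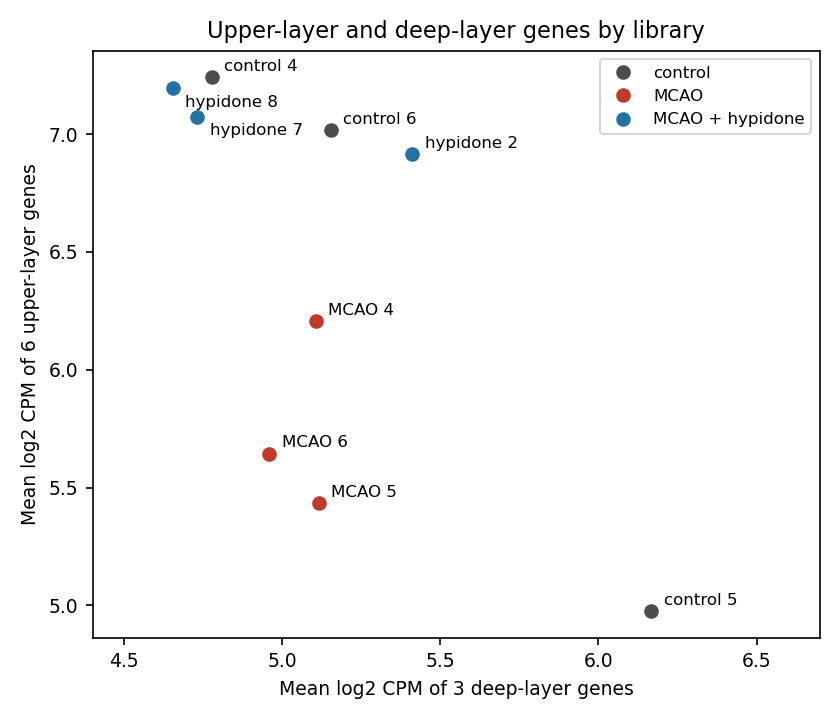
Mean log2 CPM of the 6 upper-layer genes against that of the 3 deep-layer genes, 1 point per library, coloured by group. The MCAO libraries lie below the hypidone libraries and controls 4 and 6 at similar deep-layer levels, and control 5 lies apart with the lowest upper and the highest deep mean.

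Of 18 other upper-layer genes, all tested, 3 fell in MCAO with all libraries (Dgkb, Nectin3 and Inhba) and 0 rose. Without control 5, 7 fell and 1 rose. Over all genes 9.81% were called lower and 10.6% higher, or 10.3% and 9.12% without control 5. Their median log2 fold change was -0.41, or -0.67 without control 5. The diacylglycerol kinase gene Dgkb fell by 1.16 ± 0.21 (adjusted p = 0.00848), the cell adhesion gene Nectin3 by 0.996 ± 0.18 (adjusted p = 0.00889) and the activin subunit gene Inhba by 1.78 ± 0.52 (adjusted p = 0.0419). Against MCAO, 4 of the 18 rose with the drug and 8 did without control 5, with 0 lower and a median of 0.66, beside -0.035 over all genes. Of all genes 8.23% were called higher in this comparison, or 10.8% without control 5. Nectin3 rose by 1.04 ± 0.18 (adjusted p = 0.00952) and Dgkb by 0.84 ± 0.20 (adjusted p = 0.0258).

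Other deep-layer genes moved in both directions. Of 20, all tested, 4 fell in MCAO and 2 rose, with a median of 0.17, where 9.81% of all genes were called lower and 10.6% higher. Without control 5 the counts were 4 and 1, with a median of -0.01, where 10.3% of all genes were lower and 9.12% higher. The pseudokinase gene Trib2 fell by 1.61 ± 0.22 (adjusted p = 0.00435), the layer 5 transcription factor gene Etv1 by 1.14 ± 0.26 (adjusted p = 0.0177) and the calmodulin regulator gene Pcp4 by 1.37 ± 0.35 (adjusted p = 0.0278). Trib2 was at 9.64, 18.5 and 13.5 CPM in MCAO and between 38.2 and 51.9 CPM in each other library, control 5 included. With the drug 3 of the 20 rose against MCAO, Trib2 by 1.82 ± 0.22 (adjusted p = 0.00412), Sox5, a factor of deep-layer neurons, by 0.71 ± 0.20 (adjusted p = 0.0425) and Pcp4 by 1.21 ± 0.35 (adjusted p = 0.0463). Without control 5 these counts were 4 higher and 4 lower. Over all genes 8.23% were called higher and 8.28% lower in this comparison, or 10.8% and 10.3% without control 5. The median of the 20 against MCAO was -0.20 in both fits. Genes of this list thus fell in MCAO, while Fezf2, Tle4 and Bcl11b did not pass the test.

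Genes shared by pyramidal neurons of all layers were lower in 2 of 14 cases in MCAO, or 3 without control 5, with a median of -0.25, or -0.47. Over all genes 9.81% were called lower, or 10.3% without control 5. The neuritin gene Nrn1, which is induced by activity, fell by 1.71 ± 0.20 (adjusted p = 0.00269) and the repressor gene Zbtb18 by 0.58 ± 0.15 (adjusted p = 0.0262), while Neurod1 had -0.86 ± 0.27 (adjusted p = 0.0526). With the drug 1 of the 14 rose, or 2 without control 5, where 8.23% and 10.8% of all genes were called higher. Nrn1 rose by 1.71 ± 0.20 (adjusted p = 0.00354), and Zbtb18 had 0.42 ± 0.15 (adjusted p = 0.0769). The mean log2 CPM of the 14 genes was 7.84, 7.17 and 7.36 in MCAO 4, 5 and 6 and 7.40 to 7.95 in control. Relative to that mean in the same library, Rspo1 was at -5.45, -5.17 and -4.77 in MCAO 4, 5 and 6. It was at -2.72, -6.92 and -3.31 in controls 4, 5 and 6, so MCAO lay below controls 4 and 6 and above control 5. Rorb and Lamp5 lay likewise, and Neurod6 in MCAO lay below all controls. Cux2, on the same scale, was at -0.70, -0.50 and -0.62 in MCAO and at -0.61, -3.015 and -0.74 in controls 4, 5 and 6. The groups thus overlapped for Cux2 on this scale, as they did for Rasgrf2.

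Markers of other cells moved with the same libraries. Over all genes 10.6% were called higher and 9.81% lower in MCAO, or 9.12% and 10.3% without control 5. Against MCAO, 8.23% were called higher and 8.28% lower with the drug, or 10.8% and 10.3% without control 5. Of 12 activated microglia genes, 10 rose in MCAO and none fell, and their mean log2 CPM was 3.43, 7.92 and 5.59 in MCAO 4, 5 and 6 against 2.10 to 2.80 in control and 2.90 to 3.54 with the drug, where 7 of them fell against MCAO. Without control 5 these counts were 10 and 8. Of 11 reactive astrocyte genes, 10 rose, with means of 3.39, 6.35 and 5.70 in MCAO against 2.04 to 2.58 in control and 2.81 to 3.17 with the drug, where 8 fell, and without control 5 the counts were 9 and 8. Of 12 pan-neuronal genes 1 fell in MCAO, or 4 without control 5, and 2 rose with the drug, or 4 without control 5. Their median log2 fold change in MCAO was -0.41, or -0.47 without control 5, and their mean log2 CPM was 9.30, 8.53 and 9.01 in MCAO 4, 5 and 6, 9.14 to 9.60 in control and 9.39 to 9.52 with the drug. MCAO 5 and 6, where Lamp5, Rasgrf2 and Rorb were lowest of the MCAO libraries, held the higher glial levels. MCAO 4 had the lowest glial levels of its group, and its Neurod6, at 22.7 CPM, was the lowest of all libraries. All 5 red cell genes rose with the drug against MCAO and none passed between MCAO and control, in both fits. They were at a mean log2 CPM of -0.55 to 1.72 in MCAO, 2.05 to 3.04 in control and 2.94 to 4.48 with the drug. The part of any of these in the layer genes' values was not tested.

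Lamp5 is expressed by both pyramidal cells and interneurons. Of 10 genes of GABAergic and Lamp5-type interneurons, 2 fell and 1 rose in MCAO with all libraries and without control 5, with a median of -0.45, or -0.46. The synaptic vesicle gene Sv2c fell by 0.87 ± 0.18 (adjusted p = 0.0128), and Lsp1, which leukocytes also express, rose by 2.28 ± 0.39 (adjusted p = 0.00732). With the drug 2 of the 10 rose and 1 fell against MCAO, or 3 and 1 without control 5, with a median of 0.50 in both fits. Shares over all genes, with all libraries, were 9.81% lower and 10.6% higher in MCAO. Against MCAO they were 8.23% higher and 8.28% lower with the drug. The part of interneurons in the Lamp5 values was not tested.

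The genes whose pattern over the 9 libraries was closest were found by the root mean square difference of log2 CPM, each gene centred on its own mean, among 12558 other genes with a mean log2 CPM of at least 1. The closest was C130074G19Rik for Cux2 (0.15), with Mef2c next (0.16). It was the neuropeptide gene Vip for Rorb (0.21), the potassium channel gene Kcnh4 for Lamp5 (0.26), Cd6 for Rspo1 (0.51) and the calcium channel subunit gene Cacnb4 for Rasgrf2 (0.12). For Neurod6 it was the potassium channel gene Kcng1 (0.28), for Bcl11b the serotonin receptor gene Htr1a (0.23), for Tle4 Arsg (0.13) and for Fezf2 Sox10 (0.13), a factor of oligodendrocytes. Rspo1 had the largest distance, but also the largest spread of its own, with an SD of 1.70 against 0.38 for Fezf2. The distances are not scaled to that spread. Without control 5 the closest gene to Lamp5 was again Kcnh4 and to Fezf2 again Sox10, both at a similar distance of 0.25 and 0.13. The other 7 genes had a different closest gene then, such as Npy5r for Rspo1 (0.29) and Arhgap15 for Rorb (0.13). Sox10 was at 20.7, 47.1 and 27.8 CPM in controls 4, 5 and 6 and at 35.3, 22.3 and 22.2 CPM in hypidone 2, 7 and 8, and like Fezf2 it was highest in control 5 and hypidone 2 of these groups.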

How the data were processed

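Counts per gene were deposited by the authors in a table of 18138 genes for all 9 libraries, beside FPKM values that the authors computed. For 2 comparisons the authors also deposited fold changes and p-values with q-values. Build mm10 and the tool DESeq2 come from the submitters' processing notes. As to aligner, counter, strand setting and versions, these were not given in the sources used here. Libraries were assigned by the treatment labels. The counts were filtered with filterByExpr, scaled by TMM and fitted with edgeR 4.0.16 (glmQLFit, glmQLFTest; R 4.3.3) over all 3 groups, with no covariate, which left 6 residual degrees of freedom. Adjusted p-values are Benjamini-Hochberg over all 14756 genes tested, or 14990 without control 5. Alternatives used DESeq2 1.42.0 and limma 3.58.1, and FPKM on log2 with a pseudocount of 1 or 0.1. The edgeR step was tested on simulated data. The 9 genes and the other lists were chosen with earlier results of these data known. All 9 genes are named. Of each other layer or pyramidal list, the 3 genes with the lowest p in MCAO against control and the 2 with the lowest p in hypidone against MCAO are named, and of each other list at most 2. Prox1, Ttr, Drd2 and Adora2a were named after their values were seen. Each library was left out in turn. The combinations of leaving out control 5 with other tools, groups or libraries were chosen after seeing the data. Log2 CPM used a prior count of 2. Promoters are RefSeq windows and gene positions are from GENCODE M21.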

Additional observations from a re-analysis of the deposited data

How the results depend on the processing

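With 3 libraries a group and control 5 apart from the rest, the number of the 9 genes called moved with the choice of libraries and tool, and the cause was not tested. For MCAO against control, 1 gene was called by edgeR, 2 by DESeq2 (Neurod6 and Bcl11b), 4 by limma voom with quality weights, all lower, 0 in a fit of the groups compared alone and 1 to 6 on leaving out 1 library, or control 5 and another. Without control 5, DESeq2 called 4 and voom 6. Over all genes DESeq2 called 14.2% lower and voom 25.6%, or 13.8% and 26.3% without control 5, beside 9.81% by edgeR and 2.33% in the fit of these groups alone. For hypidone against MCAO, edgeR called 0, DESeq2 2, voom 5, the groups compared alone 2, and the leave-outs 0 to 6, and without control 5 DESeq2 called 4 and voom 6. Over all genes DESeq2 called 12.5% higher and voom 26.5%, or 14.5% and 27.1% without control 5, beside 8.23% by edgeR and 7.21% in the fit of these groups alone. The 6 calls by edgeR came with control 5 and MCAO 4 left out, where 17.5% of all genes were lower in MCAO and 17.4% higher with the drug. Over the leave-outs that kept more than 1 control, the share of all genes called lower in MCAO ran from 3.98% to 17.5%. The share called higher with the drug ran from 2.1% to 17.4%, so the shares over all genes moved widely as well. The pairing of replicate numbers was checked between control and MCAO. Same-numbered libraries correlated at 0.118, 0.123 and -0.04 in their deviations, and differently numbered ones at -0.151 to 0.124. With 3 libraries a group these values cannot decide whether the numbers pair the samples. With a replicate block 0 of the 9 genes and 0% of all genes were called (Neurod6 adjusted p = 0.0898 by edgeR). In that fit the log2 fold change of Fezf2 in MCAO against control was 0.021. None of the following log2 fold changes was called with all libraries, and each changed sign in some setting. In MCAO against control, voom gave Cux2 -0.29, Fezf2 0.25 and Tle4 0.039. Fezf2 had 0.03 with library totals, and 0.058 and 0.067 on log2 FPKM with a pseudocount of 1 and 0.1, where Tle4 had 0.026 and 0.033. Without control 5, DESeq2, voom and the groups compared alone gave Cux2 -0.38, -0.49 and -0.41, Fezf2 0.30, 0.32 and 0.27, and Tle4 0.22, 0.11 and 0.18. The leave-outs ranged from -0.55 to 0.50 for Cux2, -0.81 to 0.10 for Rasgrf2, -0.19 to 0.39 for Fezf2, -0.22 to 0.40 for Tle4 and -1.74 to 0.064 for Bcl11b. In hypidone against MCAO they ranged from -0.011 to 0.33 for Bcl11b. In hypidone against control, voom gave Rorb -0.025. Without control 5, DESeq2, voom and the groups compared alone gave Rorb -0.25, -0.24 and -0.24, Lamp5 -0.10, -0.12 and -0.093, and Rspo1 -0.10, -0.054 and -0.088, while Fezf2 had 0.068 by DESeq2 and 0.072 by the groups compared alone. The leave-outs there ranged from -0.10 to 0.93 for Cux2, -0.52 to 0.81 for Rorb, -0.25 to 0.87 for Lamp5, -0.38 to 1.17 for Rspo1, -1.30 to 0.12 for Neurod6, -0.59 to 0.24 for Fezf2, -0.59 to 0.14 for Tle4 and -1.52 to 0.29 for Bcl11b. The upper-minus-deep difference of MCAO from control was -0.34 with all libraries, -1.46 without control 5 and 0.37 without control 4. Control 5 had only 49 counts of Rspo1, so its counting error is largest there.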
